A study of Homo sapiens with 8 samples.

Results

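The 10 genes described here encode enzymes and a scaffold of base excision repair, and they were chosen as a list of gene symbols: NTHL1, MUTYH, OGG1, UNG, MPG, TDG, APEX1, XRCC1, LIG1 and LIG3. All 10 were found on the arrays through the sequence accession of their probes, out of 19043 genes tested. Each was well above background on all 8 arrays by the call of the scanner software. Gene expression was measured in A549 cells, a long-established line of human lung carcinoma, on Agilent whole-genome arrays hybridized with a single dye. One series of 4 arrays held cells given the vehicle or EEDS, the ethanol extract of Descurainia sophia seeds, at 1.25, 5 or 20 μg/mL. The other series of 4 arrays held cells given the vehicle or helveticoside, a cardiac glycoside, at 3.75, 15 or 60 nM. Each array carried RNA pooled from 3 cultures, and the labels describe no genetic change in the cells of any group. The exposure is given as 24 h in the paper and as 48 h in the sample labels, and the labels do not name the vehicle. With 1 array per dose, single doses have no p-value, and precision is limited by the number of arrays.

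Base excision repair removes single damaged or mispaired bases from DNA. A DNA glycosylase cuts the base from its sugar, an apurinic/apyrimidinic (AP) endonuclease opens the strand at the abasic site, a DNA polymerase fills the gap, and a ligase seals the nick while XRCC1 holds the late enzymes together. When more than a single nucleotide is replaced, replication proteins such as PCNA and FEN1 take over the last steps, a route called long patch repair.

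Probe spots had a median signal of 182 to 214 in the EEDS series and 223 to 278 in the helveticoside series, over a median local background of 27.0 to 34.0, and no probe spot was saturated. All 5 epithelial markers and the 4 measured genes known for high expression in A549 were well above background on all arrays. Of the markers of other cell types, CD3E, DCN, PECAM1, VWF and KDR were not well above background on any array, whereas PTPRC, CD79A and CD14 among 4 leukocyte markers, 1 of 4 fibroblast markers (COL1A1) and 1 of 4 endothelial markers (CDH5) were so on all arrays. Some of these markers moved with dose as the members did. Of the epithelial markers 4 fell with EEDS and 3 with helveticoside, among them CDH1, with log2 ratios of -2.70 and -2.71 at the top doses, and KRT19, with -1.90 and -1.72. The leukocyte marker CD14 stood at -1.57 and -2.28, and its trend was not called. CD79A, another leukocyte marker, stood at -1.17 and -0.71 at the top doses. Its trend fell with EEDS (limma adjusted p = 0.0428) and was not called with helveticoside (adjusted p = 0.119). The summed normalized intensity of the A549 list ranged from 369561 to 773586 in the EEDS series and from 313054 to 766640 in the helveticoside series. The sum of the leukocyte list ranged from 3255 to 7794 in the EEDS series and from 5173 to 10422 in the helveticoside series. That of the fibroblast list ranged from 299 to 614 and from 280 to 426, and of the endothelial list from 147 to 167 and from 219 to 246, and the part of these markers in the results below was not tested. CDKN2A, a gene known to be deleted in A549, goes against the label on 1 of its 2 probes. That probe had log2 intensities of 9.15 to 11.56 and was well above background on all 8 arrays. It fell with both agents, to log2 ratios of -2.16 and -2.25 at the top doses (limma adjusted p = 0.0464 and 0.0452). The second CDKN2A probe lay between 2.97 and 3.79 and was above background on none.

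Of the 10 genes, 5 fell and 1 rose over the doses of EEDS in the limma trend across all genes, against 7.90% of all genes falling and 7.30% rising. With helveticoside, 5 also fell and 1 rose, against 5.85% and 5.52% of all genes. Like the 10 genes, 11491 genes were well above background on all arrays. Among those, 1227 fell and 1177 rose with EEDS, and 882 fell and 881 rose with helveticoside. For both agents, the falling genes were NTHL1, MUTYH, APEX1, XRCC1 and LIG1 and the rising gene was TDG. The members were chosen with earlier results of these data known, so these counts describe the list. A lower array value can stand for less of a transcript per cell or for fewer cells that make it, which cannot be told apart in RNA from whole cultures.

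**Figure D1:**
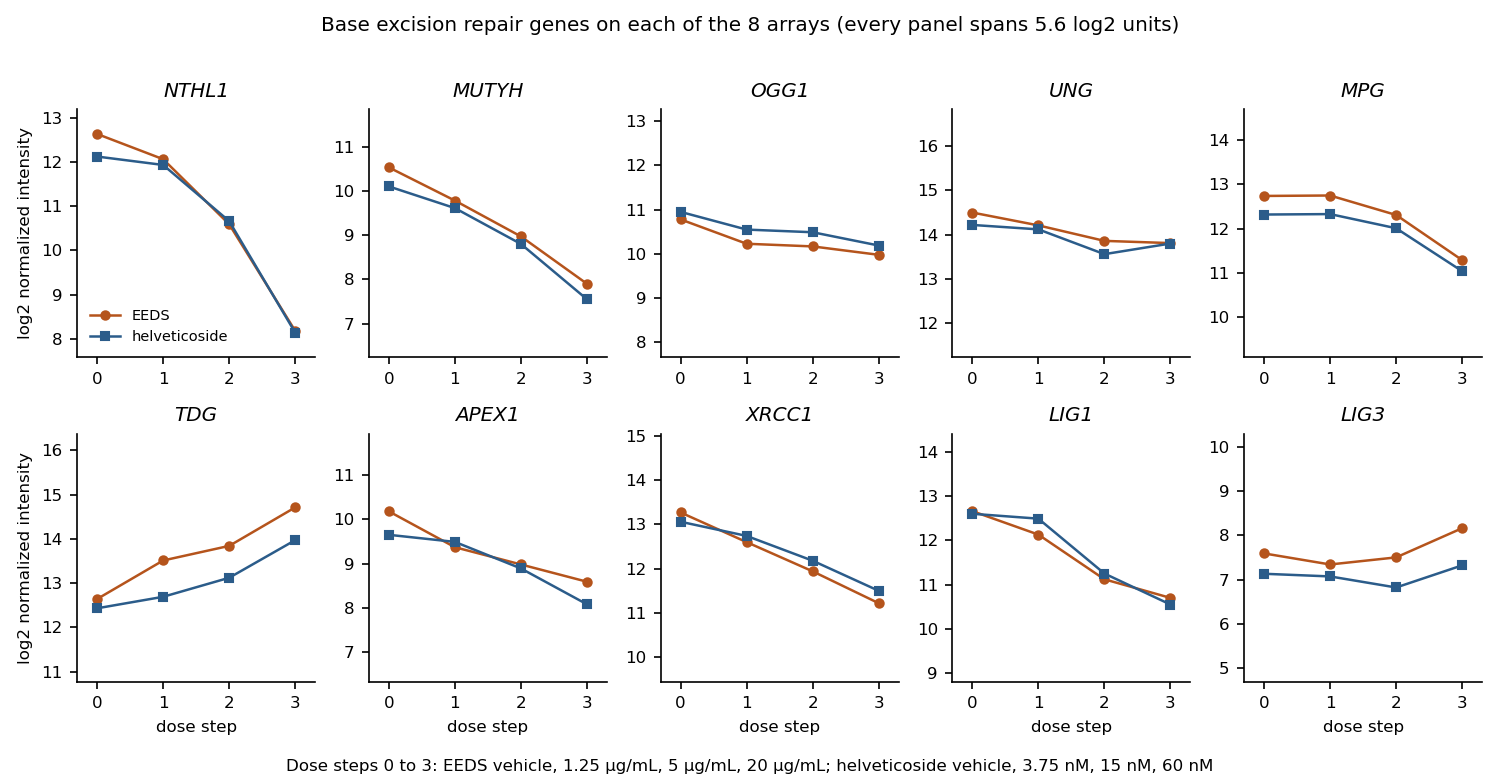
Log2 normalized intensity of the 10 genes on each of the 8 arrays, by dose step, where step 0 is the vehicle and steps 1 to 3 are the rising doses of each agent (circles, EEDS; squares, helveticoside). Each point is 1 array, every panel spans the same height, and levels are not comparable between panels because each gene has its own probe. NTHL1 drops from above 12 to near 8 in both series, and TDG is the gene that climbs at every step.

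NTHL1, a glycosylase for oxidized pyrimidines such as thymine glycol, had the largest fall of the list. Its log2 intensity in the EEDS series was 12.63 with the vehicle and 12.06, 10.59 and 8.18 at the rising doses. In the helveticoside series it was 12.12 with the vehicle and 11.93, 10.66 and 8.14 at the rising doses. Every step down to the next dose was larger than the one before it in both series, with -0.57, -1.47 and -2.40 for EEDS and -0.19, -1.27 and -2.51 for helveticoside. At the top doses 4.6% of the vehicle's intensity remained with EEDS (21.8-fold lower) and 6.3% with helveticoside (15.8-fold lower). At 20 μg/mL EEDS the ratio ranked 30 from the lowest among the 19043 genes, and at 60 nM helveticoside it ranked 65. The log2 slope per dose step was -1.48 ± 0.28 (SE; limma adjusted p = 0.0298) for EEDS and -1.32 ± 0.28 (adjusted p = 0.0442) for helveticoside. NTHL1 also had the largest residual SD around a straight line of the 10 genes, 0.74, and the largest standard error.

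NTHL1 lies head to head with TSC2, which encodes the growth regulator tuberin, on chromosome 16, and the starts of their transcripts lie 151 bases apart in the RefSeq annotation. The log2 ratio of TSC2 to its vehicle was -0.77, -0.92 and -1.19 at the rising EEDS doses and -0.39, -0.80 and -1.0 at the rising helveticoside doses, and its trend fell for both agents. At the top doses TSC2 was thus lower by less than NTHL1. The 150 bases upstream of the NTHL1 start, which fill the interval between both genes, are shown because the falling pair shares them (RefSeq, GRCh38.p14, chr16:2047835-2047984, minus strand, 5′ to 3′). Below are also the 250 bases upstream of TDG, the gene that rose (chr12:103965622-103965871, plus strand), and of APEX1, which lies head to head with another gene as well (chr14:20454976-20455225, plus strand). Capitals mark the letters of the motifs found on either strand: GGGCGG for SP1, CCAAT for the CCAAT box, CCGGAAG for ETS factors and CACGTG for the E-box. For E2F the words searched were TTTGGCG along with TTTCGCG, as well as TTCCCGC and finally also TTGGCGC.
NTHL1: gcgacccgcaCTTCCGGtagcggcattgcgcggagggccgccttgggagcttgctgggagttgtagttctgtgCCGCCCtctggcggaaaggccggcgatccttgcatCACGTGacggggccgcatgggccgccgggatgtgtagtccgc
TDG: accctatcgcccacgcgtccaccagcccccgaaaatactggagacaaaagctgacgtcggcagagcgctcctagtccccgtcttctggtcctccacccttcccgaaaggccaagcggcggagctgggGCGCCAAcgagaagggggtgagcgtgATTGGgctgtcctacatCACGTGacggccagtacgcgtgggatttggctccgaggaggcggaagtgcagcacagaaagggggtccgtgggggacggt
APEX1: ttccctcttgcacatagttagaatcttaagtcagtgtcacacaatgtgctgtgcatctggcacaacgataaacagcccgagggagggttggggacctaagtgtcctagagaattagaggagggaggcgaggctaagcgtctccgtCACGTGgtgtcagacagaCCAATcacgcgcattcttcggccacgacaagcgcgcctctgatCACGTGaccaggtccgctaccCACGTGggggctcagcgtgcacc

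The E-box letters CACGTG stood in the 250 upstream bases of 5 of the 10 genes, NTHL1, LIG3, TDG, APEX1 and MPG, and in 7.9% of the 14900 promoters of the same length in the table. The 5 genes include NTHL1 and APEX1, which fell, TDG, which rose, and LIG3 and MPG, which did not pass the test. APEX1 held CACGTG 3 times, at 23, 44 and 105 bases before the start, counted to the first letter of each match. The E2F letters were also present in 5 genes, LIG1, TDG, OGG1, UNG and XRCC1, and in 13.0% of all promoters, and they overlapped a GGGCGG match in LIG1 and a CCAAT match in OGG1. GGGCGG was found in 7 genes (56.9% of all promoters) and CCAAT in 6 (34.6%). The ETS letters CCGGAAG were found in NTHL1 alone among the 10 genes, once in the bases shown and once upstream of them (12.1% of all promoters), and GCATGCG, the NRF1 letters, in UNG alone (4.6%). TGACGTCA (2.4%) and TATAAA (8.9%) were in none of the 10. The matches describe these windows only.

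MUTYH, the glycosylase that removes adenine paired with 8-oxoguanine, fell with both agents. Its log2 intensity was 10.53 with the EEDS vehicle and 9.78, 8.97 and 7.90 at the rising EEDS doses. With the helveticoside vehicle it was 10.10, and at the rising doses 9.61, 8.80 and 7.55. Each array lay below the one of the next lower dose in both series, by -0.74, -0.81 and -1.07 for EEDS and by -0.49, -0.81 and -1.25 for helveticoside. The intensity at the top dose was 6.17-fold lower with EEDS and 5.87-fold lower with helveticoside, and the slopes were -0.87 ± 0.09 (adjusted p = 0.0133) and -0.85 ± 0.09 (adjusted p = 0.0167) per dose step. The transcript of TOE1, an RNA deadenylase gene on the opposite strand, starts 270 bases inside MUTYH. The log2 ratio of TOE1 was -0.55, -0.19 and 0.55 at the rising EEDS doses and -0.79, -0.05 and 0.59 at the rising helveticoside doses, so at the top doses it lay above its vehicle while MUTYH lay below. The trend of TOE1 did not pass the test for either agent.

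The other glycosylases for single base lesions were lower by less. OGG1, which removes 8-oxoguanine paired with cytosine, had log2 intensities of 10.78, 10.23, 10.17 and 9.98 from the vehicle to 20 μg/mL EEDS. From the vehicle to 60 nM helveticoside they were 10.95, 10.55, 10.49 and 10.19. All treated arrays of OGG1 lay below their vehicle and most of the difference was present at the lowest dose, but the slopes of -0.24 ± 0.06 for both agents missed the threshold (adjusted p = 0.0600 for EEDS and 0.0751 for helveticoside, limma). A second OGG1 probe, for another of its transcripts, gave log2 ratios of -0.95, -0.85 and -0.63 with EEDS and of -0.05, -0.08 and -0.42 with helveticoside, so both probes were below the vehicle on every treated array but ordered the EEDS doses differently. UNG, the main uracil glycosylase, was lower by a log2 ratio of -0.29, -0.63 and -0.68 with EEDS and of -0.11, -0.66 and -0.43 with helveticoside. Its slopes of -0.24 ± 0.07 and -0.18 ± 0.07 did not pass the test (adjusted p = 0.0863 and 0.172).

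MPG, the glycosylase for alkylated purines such as 3-methyladenine, did not pass the trend test for either agent in the main fit. Its log2 intensity was 12.74 with the EEDS vehicle, 12.75 at 1.25 μg/mL, 12.31 at 5 μg/mL and 11.29 at 20 μg/mL. With helveticoside it was 12.32 on the vehicle array, 12.33 at 3.75 nM, 12.01 at 15 nM and 11.04 at 60 nM. The lowest dose was thus at the vehicle's level in both series and the top dose stood apart, 2.73-fold lower with EEDS and 2.43-fold lower with helveticoside. The straight-line slopes of -0.48 ± 0.14 and -0.42 ± 0.14 missed the threshold (adjusted p = 0.0767 and 0.122). Among 12 alternative settings that kept all arrays, MPG passed in 5 for EEDS and in 1 for helveticoside. The lowest limma adjusted p for EEDS, 0.0116, came with the dose itself in place of the dose step.

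TDG, the glycosylase that removes thymine or uracil mispaired with guanine and acts in active DNA demethylation, was the only one of the 10 genes that rose. Its log2 intensity was 12.64 with the EEDS vehicle and 13.51, 13.84 and 14.71 at the rising EEDS doses. In the helveticoside series it was 12.43 with the vehicle and 12.69, 13.12 and 13.97 at the rising doses. Every treated array lay above its vehicle and above the next lower dose. The intensity was 4.20-fold higher at 20 μg/mL EEDS and 2.90-fold higher at 60 nM helveticoside, and the slopes were 0.65 ± 0.08 (adjusted p = 0.0145) and 0.50 ± 0.08 (adjusted p = 0.0259). A second TDG probe gave log2 ratios of 0.82, 1.42 and 2.31 with EEDS and of 0.49, 1.02 and 2.20 with helveticoside, so it moved the same way at every dose.

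APEX1, the main AP endonuclease, fell for both agents. Its log2 intensity was 10.18 with the EEDS vehicle and 9.37, 8.98 and 8.59 at the rising EEDS doses. It was 9.65 with the helveticoside vehicle and 9.49, 8.89 and 8.08 at the rising helveticoside doses. The largest step with EEDS was the first, -0.81, whereas with helveticoside the steps were -0.16, -0.60 and -0.80. The top doses were 3.01-fold and 2.97-fold lower than their vehicles, with slopes of -0.52 ± 0.09 (adjusted p = 0.0231) and -0.53 ± 0.09 (adjusted p = 0.0272). OSGEP, a gene for a tRNA-modifying enzyme whose start lies 414 bases from that of APEX1 on the opposite strand, had log2 ratios of -0.88, -1.28 and -1.15 with EEDS and of -0.12, -1.0 and -1.23 with helveticoside. All of its treated arrays were below the vehicle, but its trend did not pass the test for either agent.

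XRCC1, the scaffold that binds LIG3, DNA polymerase beta and PARP1, had the most even decline, with the smallest residual SD of the 10 genes, 0.09. Its log2 intensity was 13.27 with the EEDS vehicle and 12.60, 11.94 and 11.22 at the rising doses. It was 13.06 with the helveticoside vehicle and 12.74, 12.18 and 11.50 at the rising doses. Each dose lay below the one before it in both series, and the top doses were 4.14-fold lower with EEDS and 2.94-fold lower with helveticoside. The slopes were -0.68 ± 0.05 (adjusted p = 0.0130) and -0.52 ± 0.05 (adjusted p = 0.0167).

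The genes of the ligase step parted. LIG1, the replicative ligase that also seals long patches, had log2 intensities of 12.66, 12.13, 11.12 and 10.70 from the vehicle to 20 μg/mL EEDS. From the vehicle to 60 nM helveticoside they were 12.60, 12.49, 11.25 and 10.55. The largest step was between the lowest and the middle dose in both series, -1.01 and -1.24. LIG1 was 3.89-fold and 4.14-fold lower at the top doses, with slopes of -0.69 ± 0.11 (adjusted p = 0.0200) and -0.74 ± 0.11 (adjusted p = 0.0226). LIG3, the partner of XRCC1 and the ligase of mitochondrial DNA, had log2 intensities of 7.59, 7.34, 7.50 and 8.16 in the EEDS series and of 7.13, 7.07, 6.82 and 7.32 in the helveticoside series. Its treated arrays lay on both sides of the vehicle, and its slopes of 0.19 ± 0.12 and 0.03 ± 0.12 did not pass the test (adjusted p = 0.357 and 0.955). At 60 nM the LIG3 ratio was 0.19, and it turned to -0.04 with scaling to the 75th percentile or against the mean of both vehicle arrays.

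**Figure D2:**
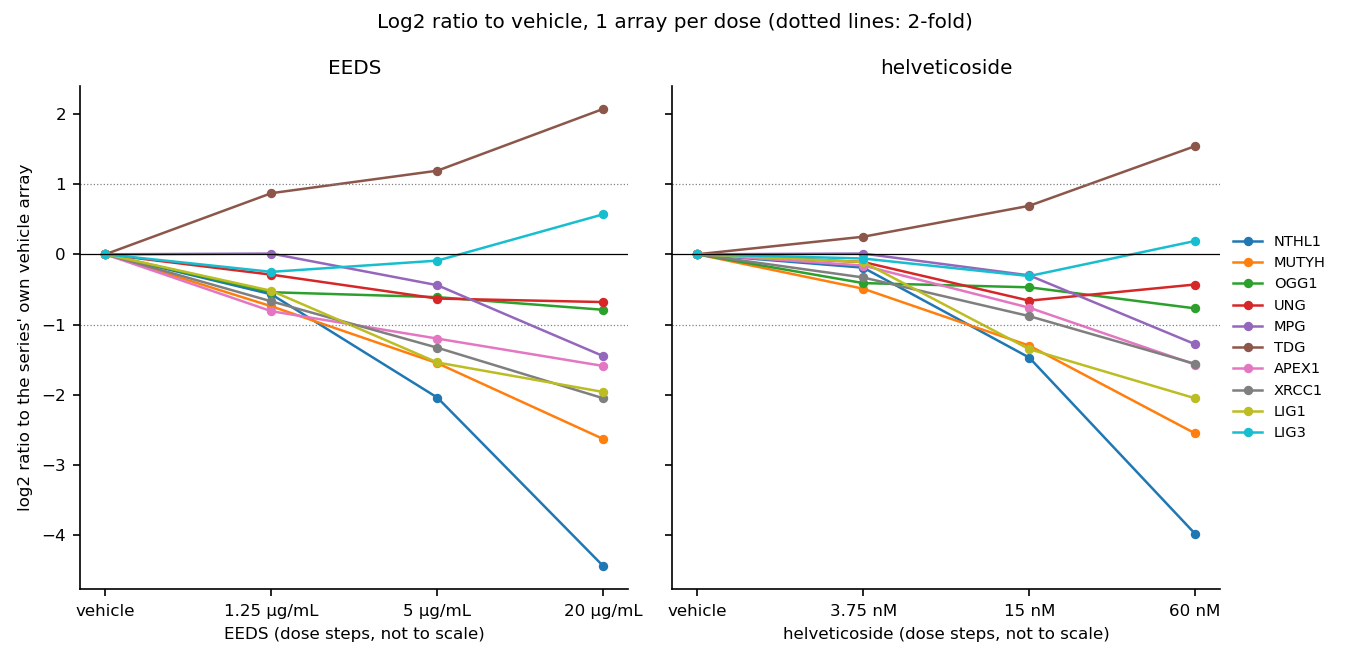
Log2 ratio of each of the 10 genes to the vehicle array of its own series, by dose of EEDS (left) and helveticoside (right), with 1 array per dose and dotted lines at a 2-fold difference. NTHL1 reaches -4.44 and -3.98, TDG reaches 2.07 and 1.54, and the other genes lie between them.

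At the lowest doses none of the 10 genes was more than 2-fold lower than its vehicle, against 3.71% of all genes at 1.25 μg/mL EEDS and 4.38% at 3.75 nM helveticoside. At the middle doses 5 genes were more than 2-fold lower with EEDS (8.53% of all genes) and 3 with helveticoside (8.13%). The 3 genes with helveticoside were NTHL1, MUTYH and LIG1, and with EEDS XRCC1 and APEX1 joined them. At the top doses 6 genes were more than 2-fold lower with either agent, MPG having been added, against 14.6% of all genes with EEDS and 12.9% with helveticoside. TDG was the 1 gene more than 2-fold higher at each top dose, against 13.4% and 10.9% of all genes. The median log2 ratio of the 10 genes was -0.53, -0.91 and -1.52 at the rising EEDS doses and -0.14, -0.71 and -1.42 at the rising helveticoside doses, where quantile normalization holds the median of all genes near 0. With scaling to the 75th percentile the median of all genes was -0.36 and -0.18 at the top doses, and that of the 10 genes -1.48 and -1.18. The error that the scanner software gave for a single spot of these probes was 10.0% to 15.8%, which corresponds to 0.20 to 0.27 on the log2 scale for a ratio at the top dose and covers the error within an array only.

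Both agents ordered the genes in much the same way. Correlated across the 10 genes, which do not count as replicates, the ratios of the EEDS and helveticoside series gave 0.992 (Pearson) and 0.964 (Spearman) at the top doses, 0.980 and 0.976 at the middle doses, and 0.846 and 0.842 at the lowest doses. The series share no array, and their doses are in different units and were not matched. The difference between the slopes of the agents passed the test for 0 of the 10 genes in limma, as for 0.00% of all genes, and 0 of the 10 had an unadjusted p under 0.05. For XRCC1 the slope with helveticoside minus that with EEDS was 0.16, with a 95% interval of -0.02 to 0.33, and for TDG it was -0.15 (-0.44 to 0.14). For NTHL1 the same difference was 0.16 with an interval of -0.85 to 1.16, so differences of that size in either direction could not be seen with these arrays. The agent cannot be told apart from the series it was tested in, and the vehicle arrays themselves differed. On the helveticoside vehicle array 9 of the 10 genes stood below their EEDS vehicle level, by differences between -0.53 (APEX1) and -0.06 (LIG1), and OGG1 was higher by 0.18. Over the 11491 genes well above background on every array this difference had a median of -0.11 and an SD of 0.48.

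**Figure D3:**
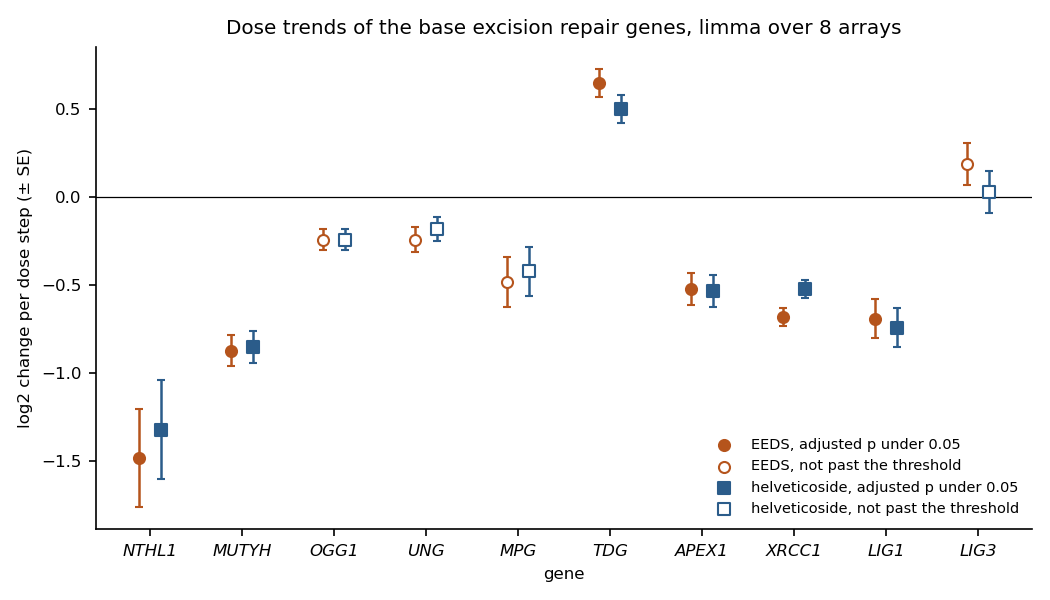
Slope of log2 intensity per dose step for each gene, with bars of ± 1 SE from the limma fit over 8 arrays (circles, EEDS; squares, helveticoside; filled, adjusted p under 0.05). The slopes run from -1.48 and -1.32 for NTHL1 to 0.65 and 0.50 for TDG, and OGG1, UNG, MPG and LIG3 have open symbols for both agents.

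The calls of the trend test rest on few arrays. With each series fitted alone, 0 of the 10 genes passed the test for either agent, and 9 (EEDS) and 8 (helveticoside) were under 0.05 before adjustment. Over all 19043 genes, 0 passed for either agent in these fits, and 5319 (EEDS) and 4942 (helveticoside) were under 0.05 before adjustment. Without the EEDS vehicle array or without the 20 μg/mL array, 0 genes passed for EEDS. In each case 7 had an unadjusted p under 0.05, against 4623 and 3935 of all genes. Without the 15 nM helveticoside array 3 passed for EEDS, while 437 of all genes fell and 459 rose. Without the 15 nM or without the 60 nM array, 0 genes passed for helveticoside, with 9 and 6 at an unadjusted p under 0.05, against 5044 and 3044 of all genes. Where 0 of the 10 genes passed with an array left out, 0 of all genes passed for that agent as well. The helveticoside count was 2 without the 1.25 μg/mL EEDS array and 3 without the helveticoside vehicle or the 3.75 nM array. Over all genes the helveticoside calls dropped too, from 1114 falling and 1051 rising in the main fit. They were 316 and 365 without the 1.25 μg/mL EEDS array. Without the helveticoside vehicle they were 231 and 246, and without the 3.75 nM array 478 and 481. With the dose itself in place of the dose step, 2 passed for helveticoside and 4 for EEDS. Of all genes, 447 then fell and 375 rose with helveticoside, and 1088 fell and 1108 rose with EEDS. When 1 array was left out, the NTHL1 slope lay between -1.94 and -1.02 for EEDS and between -1.89 and -0.73 for helveticoside, and the TDG slope between 0.60 and 0.68 and between 0.34 and 0.64.

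Of 30 other base excision repair genes listed, 29 were tested, and 5 fell and 1 rose with EEDS (7.90% and 7.30% of all genes) while 6 fell and 1 rose with helveticoside (5.85% and 5.52%). Their median log2 ratio at the top dose was -0.51 with EEDS and -0.48 with helveticoside. Among the other glycosylases, SMUG1, which removes uracil, fell with slopes of -0.28 ± 0.06 and -0.33 ± 0.06, and MBD4, which removes thymine mispaired at methylated CpG sites, fell with slopes of -0.48 ± 0.07 and -0.40 ± 0.07. NEIL3, a glycosylase for oxidized bases, fell with EEDS (-0.60 ± 0.12, adjusted p = 0.0341), and its slope with helveticoside of -0.33 ± 0.12 missed the threshold (adjusted p = 0.143). NEIL1, a related glycosylase, had log2 ratios of -0.41, -1.01 and -1.10 with EEDS and of 0.50, 1.23 and -0.48 with helveticoside. Its arrays thus lay on opposite sides of the vehicle at the lowest and middle doses, and its trend was not called for either agent. NEIL2 was well above background on 2 of 4 EEDS arrays, was at least 2.50-fold lower at 20 μg/mL, and was not well above background on any helveticoside array. Without NEIL2, 10 glycosylases of the lists were well above background on all arrays. Of these, 9 were below the vehicle at both top doses, with medians of -1.22 and -1.02, and TDG was above it. Of all genes, 45.3% were below the vehicle at 20 μg/mL EEDS and 50.9% at 60 nM helveticoside.

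Downstream of the glycosylases, the second AP endonuclease gene, APEX2, fell with slopes of -0.44 ± 0.06 (adjusted p = 0.0181) and -0.43 ± 0.06 (adjusted p = 0.0231), so both AP endonuclease genes fell with both agents. The largest fall among the polymerases was that of POLL, DNA polymerase lambda, with slopes of -0.54 ± 0.06 (adjusted p = 0.0139) and -0.45 ± 0.06 (adjusted p = 0.0201). The slopes of POLB, the main gap-filling polymerase, were -0.18 ± 0.08 and -0.08 ± 0.08 and did not pass the test (adjusted p = 0.197 and 0.650). PARP1, which senses nicks, fell with helveticoside (-0.26 ± 0.06, adjusted p = 0.0478), and with EEDS its slope was -0.17 ± 0.06 (adjusted p = 0.114). APTX, which removes adenylate left by failed ligation, rose with slopes of 0.17 ± 0.04 and 0.19 ± 0.04 (adjusted p = 0.0459 and 0.0466). Of the 11 genes of long patch synthesis, 0 were called for either agent in limma. At an unadjusted p under 0.05, 3 would have fallen and 1 risen with EEDS, and 2 fallen with helveticoside. Of all 19043 genes, 6373 with EEDS and 5693 with helveticoside were under it in either direction. The medians of the long patch genes at the top doses were -0.25 and 0.08, and PCNA stood at -0.43 and -0.28. POLE2, a subunit of DNA polymerase epsilon, was the only long patch gene more than 2-fold lower, with -1.12 at 20 μg/mL EEDS.

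**Figure D4:**
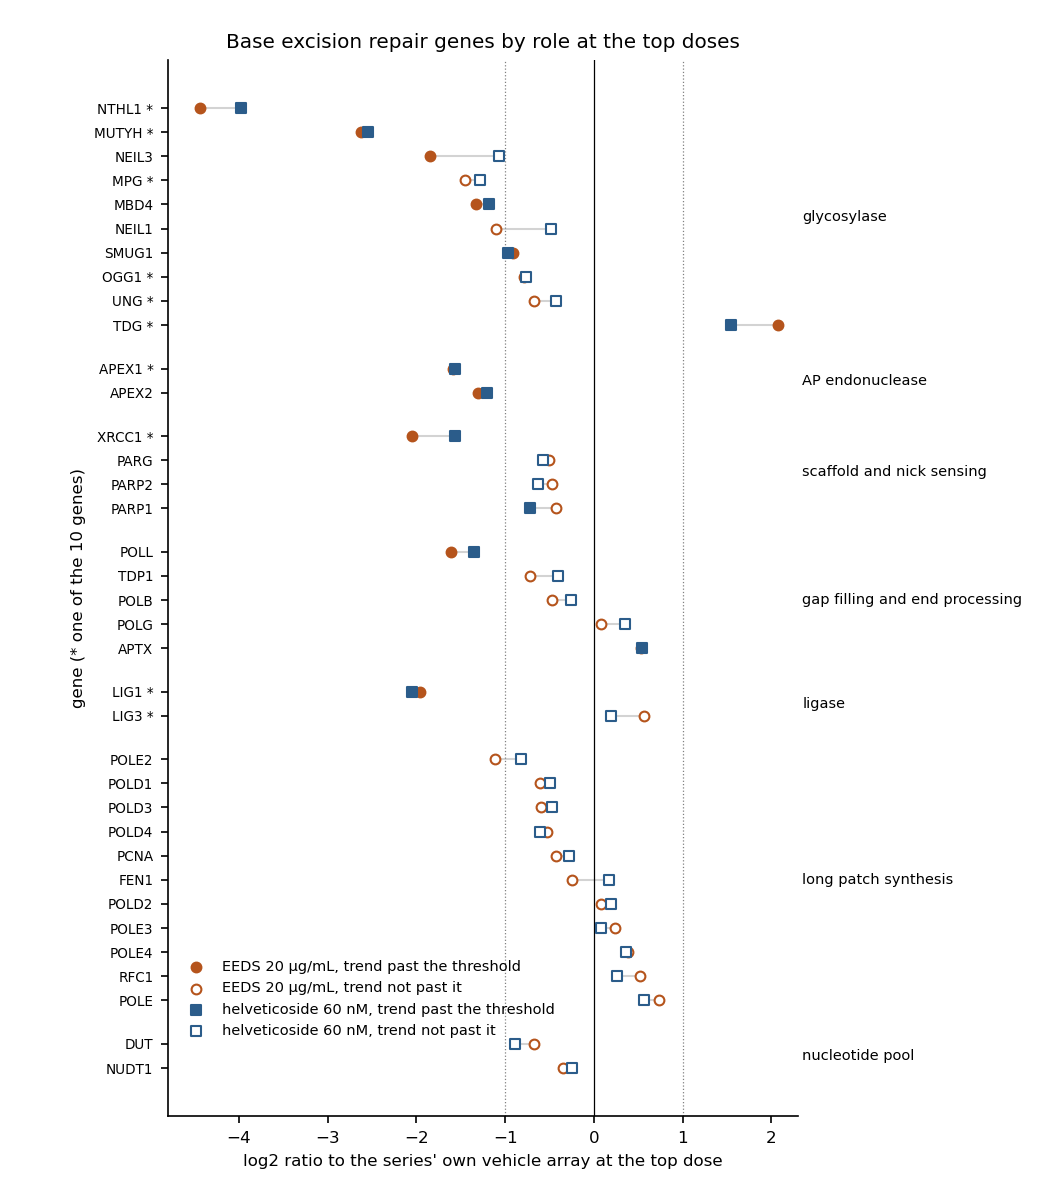
Log2 ratio to vehicle at 20 μg/mL EEDS (circles) and 60 nM helveticoside (squares) for base excision repair genes ordered by role, with filled symbols for trends past the threshold and an asterisk for the 10 genes; NEIL2 and APLF, which were not well above background, are left out, as is a gene not reported here. TDG is the single glycosylase to the right of 0, both AP endonucleases lie left of -1, and the long patch genes have open symbols.

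Other repair lists gave a measure of how the 10 genes sat among DNA maintenance genes. Among all 19043 genes, 7.90% fell and 7.30% rose with EEDS, and 5.85% fell and 5.52% rose with helveticoside. At an unadjusted p under 0.05 in limma, 6373 of them had a slope in either direction with EEDS and 5693 with helveticoside. Of 8 mismatch repair genes, 2 fell with each agent, 5 had a falling slope at an unadjusted p under 0.05 with each, and the medians at the top doses were -0.92 and -0.79. Of 21 nucleotide excision repair genes, 0 fell and 3 rose with EEDS and 2 fell and 1 rose with helveticoside in limma, with medians of -0.21 and 0.00. At an unadjusted p under 0.05, 4 had a falling and 6 a rising slope with EEDS, and 6 a falling and 5 a rising slope with helveticoside. The gene with the largest rise was CCNH, the cyclin of the CDK-activating kinase in TFIIH, with 2.12 and 1.82. Of 29 replication fork genes, 3 fell with EEDS and 2 with helveticoside (13 and 7 at an unadjusted p under 0.05), the medians were -0.61 and -0.34, and PRIM1, the catalytic primase subunit, fell most, with -3.08 and -2.42. The medians of the 10 base excision repair genes, -1.52 and -1.42, were below those of these lists, but no test of the difference between lists was made. The medians of the 29 other base excision repair genes, -0.51 and -0.48, were above those of mismatch repair. The 10 genes and the lists were chosen with earlier results of these data known, so the medians only describe these lists.

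**Figure D5:**
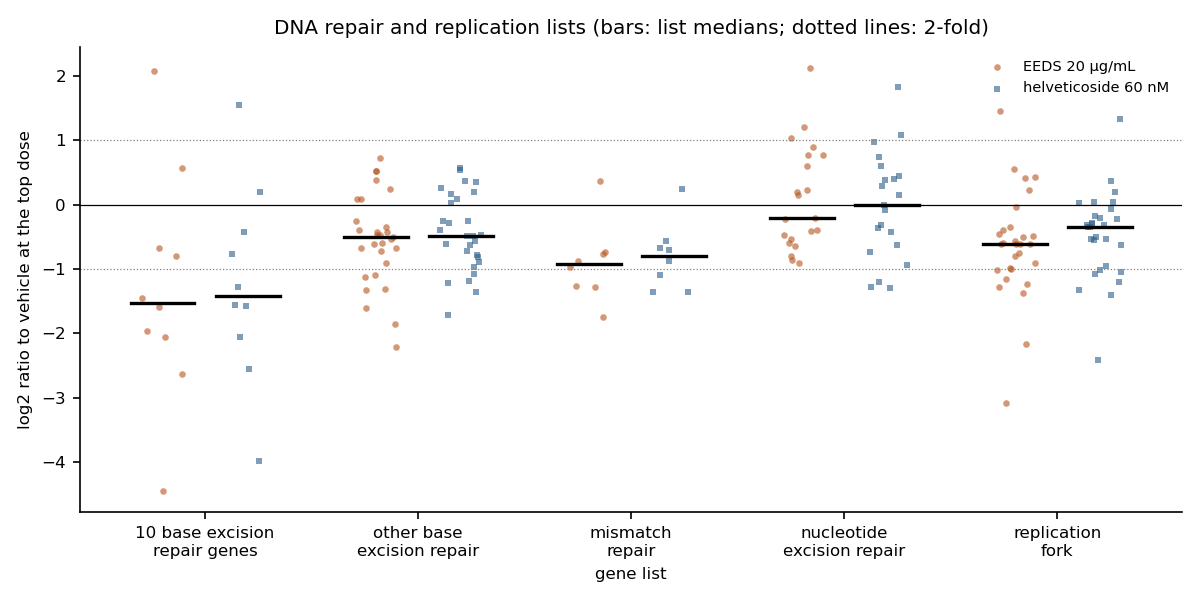
Log2 ratio to vehicle of each tested gene of 5 DNA repair and replication lists at 20 μg/mL EEDS (circles) and 60 nM helveticoside (squares), with bars at the list medians, points spread sideways for legibility, and dotted lines at a 2-fold difference. The medians of the 10 genes are -1.52 and -1.42, those of the other base excision repair genes -0.51 and -0.48, and those of nucleotide excision repair -0.21 and 0.00.

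For each of the 6 genes with a trend, the most similar genes were sought in the 11491 genes called well above background on every array, by Pearson's r over the 6 log2 ratios. The closest were FAM220A, KIF3C and ZFP90 for NTHL1, LFNG, RPA3 and ZNF18 for MUTYH, and MSRB1, RDM1 and PTGFRN for LIG1. For TDG they were RGPD6, PTRH2 and YAP1, for APEX1 FSD1, BCAT2 and SURF1, and for XRCC1 TAF6L, NUDT1 and HDGFL2. All had an r of at least 0.9973. Between 422 (APEX1) and 853 (NTHL1) of the 11491 genes had an r over 0.95, so none of these patterns was particular to its gene. A like pattern did not mean a like size, as RPA3, with ratios of -0.35 and -0.32 at the top doses, followed MUTYH, and NUDT1, the sanitizer of oxidized nucleotides, followed XRCC1 with -0.35 and -0.25.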

How the data were processed

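The authors deposited for each array the intensity of every spot as read by the scanner software, with the local background, a background-subtracted processed signal and calls of outlier and well-above-background spots. Their own table of processed intensities served as an alternative. RNA was labelled with a single dye, Cy5 per the labels. After removal of control and outlier spots, processed signals were averaged per probe (each probe of the 10 genes has 1 spot per array), quantile normalization was run over the 8 arrays, and log2 was taken. Values under 1.4 times the background were set to the higher of themselves and the lowest detected signal of the array. Of 34127 probes, 24809 were matched by accession to 1 gene of GRCh38.p14, giving 19053 genes, and a gene was represented by its brightest probe on average. The trend over doses was estimated in limma 3.58.1 under R 4.3.3 with statmod 1.5.0 (options trend and robust), using an intercept and a slope on the dose step per series, 4 residual degrees of freedom and Benjamini-Hochberg adjustment over 19043 genes at a threshold of 0.05. The fit was tested on simulated data. Python 3.11.15 with numpy 2.4.6, pandas 2.3.3 and matplotlib 3.10.9 served for the remaining values and the plots. The members, lists and tests were chosen with earlier results of these data known. The genes named are the 10 members, other base excision repair genes with a trend or a difference over 2-fold at a top dose, the largest differences of other lists, the most similar genes and neighbours whose start lies within 1000 bases on the opposite strand; POLB, PCNA and NUDT1 were named for their role after their values were seen, and a few listed genes are not reported individually here. Because the cultures were pooled, p-values measure only the spread of single arrays around a line. Alternatives covered the background correction, normalization, scaling, choice of probe, vehicle, dose scale and each array left out.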

Additional observations from a re-analysis of the deposited data

How the results depend on the processing

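The counts of genes more than 2-fold lower at the top doses were 6 under every alternative tried. Of the 10 genes, 6 had a trend for EEDS; this was 0 with each series fitted alone and ranged from 0 to 6 when 1 array was left out (0 without the EEDS vehicle or the 20 μg/mL array, and 3 without the 15 nM helveticoside array). For helveticoside, 6 had a trend; this was 2 with dose in place of dose step as the predictor, 0 with the series fitted alone, and 0 to 5 when 1 array was left out (0 without the 15 or 60 nM array, 2 without the 1.25 μg/mL EEDS array, and 3 without the helveticoside vehicle or the 3.75 nM array). Where 0 of the 10 genes passed, 0 of all genes passed for that agent as well. In the other fits named here, fewer of all genes passed than in the main fit. With dose as the predictor, 447 of all genes fell and 375 rose with helveticoside, against 1114 and 1051 with the dose step. Fits on fewer arrays had fewer residual degrees of freedom, and why the dose scale moved the counts was not tested. LIG3 at 60 nM reversed from 0.19 to -0.04 with scaling to the 75th percentile and to -0.04 with the mean of both vehicle arrays. With the values the authors deposited as processed, NTHL1 and MUTYH at 60 nM moved to -3.45 and -1.94. Scaling to the 75th percentile shifted the all-gene median to -0.20, -0.21 and -0.36 for the rising EEDS doses and to 0.14, -0.12 and -0.18 at the rising helveticoside doses, and the members' medians at the top doses were then -1.48 and -1.18. No paired analysis was possible because each group has a single array. The 1-array doses and the scanner's spot error limit the precision. The 10 genes were well above background on every array, but the largest falls depended on how the background was handled. With an alternative background correction or the signal as scanned, NTHL1 at 60 nM moved from -3.98 to -3.67 with either. MUTYH at 60 nM moved from -2.55 to -2.16 and -2.13. LIG3 had the largest spot errors, 12.6% to 15.8% on the helveticoside arrays.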
